A study of Mus musculus with 40 samples.

Results

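The 10 genes described here build MHC class I molecules and fill them with peptide: the light chain B2m, the heavy chains H2-K1 and H2-D1, the peptide transporter Tap1 and Tap2, the chaperone Tapbp (tapasin), the immunoproteasome subunits Psmb8, Psmb9 and Psmb10, and the transcriptional coactivator Nlrc5. They were taken by name from the 54513 rows of the deposited tables, and all 10 were found in each of the 3 tables. All 10 passed the filter on low values, a mean of 1 RPKM or more over the samples compared, in every comparison.

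MHC class I molecules show short peptides from inside the cell to CD8 T cells. The peptides are cut by the proteasome, in which Psmb8, Psmb9 and Psmb10 take the places of the constitutive catalytic subunits Psmb5, Psmb6 and Psmb7, and are then carried into the endoplasmic reticulum by Tap1 and Tap2. Tapasin holds an empty heavy chain with B2m beside that transporter until a peptide binds. Interferons raise this set of genes, in part through the transcription factor Irf1, and Nlrc5 acts on class I promoters. Resting microglia are known for low levels of class I molecules.

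RNA was sequenced from CD11b+ cells sorted from the brain hemisphere that carried a glioma, in male mice of 10 to 12 weeks. In the first experiment C57BL/6 mice bore GL261, a murine glioma line carrying tdTomato and luciferase, for 21 days post implantation (DPI). The groups were vehicle (water, labelled solvent control), 7aaRGD (labelled RGD), 7aaRAE (labelled RAE, a control peptide whose integrin-binding motif is changed) and naïve mice without a tumor, with 3 samples each and 2 animals pooled in each sample. In the second experiment GL261 gliomas were studied at 28 DPI in single mice, with 4 vehicle, 4 7aaRGD, 3 anti-PD-1 and 3 combination (7aaRGD plus anti-PD-1) samples. Mice without the antibody received IgG, and the antibody was given in 4 injections at 10 mg/kg. In the third experiment Athymic Nude-Foxn1nu mice, which lack mature T cells but keep NK and myeloid cells, bore human U87-MG RFP gliomas for 21 days under vehicle, 7aaRGD or 7aaRAE, with 3 samples each of 2 pooled animals. Both peptides were delivered into the tumor by osmotic pumps at 2 mg/ml, and the vehicle mice carried pumps as well. The mouse tables do not measure class I RNA of the human U87-MG cells.

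The deposited values were taken as RPKM (reads per kilobase of gene, scaled to the size of the library) plus 2, and the constant was subtracted. In every sample some rows lay below 2, which plain RPKM plus 2 cannot give. A further, unknown step had thus altered the values. The depth per sample is unknown. Of 40 samples, 35 had a column, and 5 (anti-PD-1 sample 4, combination sample 4 and the tumor-free nude mice) were not analysed here. The sample titles call the 28 DPI mice nude, whereas the study's methods give C57BL/6. H2-Ea-ps, the E alpha gene that is inactive in C57BL/6, stood at 0 to 0.0976 RPKM in the 28 DPI samples, at 0 to 0.0554 in the 21 DPI GL261 samples and at 22.5 to 374.5 in the U87-MG samples. The CD11b+ identity was checked with Itgam, the gene of CD11b, which stood at 51.2 to 195 RPKM, and with a list of 6 myeloid genes, which summed to between 2697 and 5140 RPKM in every sample. Some samples stood apart in the share of non-zero rows that were below the added constant. This share was 6.58% in 7aaRGD sample 1 of the 21 DPI GL261 experiment, against 12.1% to 14.6% in its other samples. It was 7.41% to 8.85% in the third column of each U87-MG group, against 15.9% to 18.02% in the other columns. Results without these samples are given among the limits.

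Of the 10 genes, 7 lie within the MHC on mouse chromosome 17 (mm10, GENCODE vM21). They are Tapbp (chr17:33915899-33929292, + strand), H2-K1 (chr17:33996017-34000347, - strand), Psmb9 (chr17:34181987-34187764, - strand), Tap1 (chr17:34187553-34197225, + strand), Psmb8 (chr17:34197721-34201454, + strand), Tap2 (chr17:34203527-34216321, + strand) and H2-D1 (chr17:35262730-35267499, + strand). B2m lies at chr2:122147686-122153083 on the + strand. Psmb10 (chr8:105935735-105938444, - strand) and Nlrc5 (chr8:94434356-94527272, + strand) share chromosome 8. The 5' ends of Tap1 and Psmb9 overlap on opposite strands, and the authors counted with a stranded setting. Class I heavy chains are alike in sequence, so reads may be split or lost between them. Of the 50-base windows of the annotated transcripts, 12.8% of H2-D1 and 9.63% of H2-K1 also occurred in another gene, against 0 for B2m, Psmb9, Psmb10 and Nlrc5.

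Promoter windows (250 bases before to 50 bases after the start site, RefSeq, GRCm38.p6) were found for 8 of the 10 genes. The windows below are shown because members moved together in the comparisons that follow, and so that the heavy chains H2-K1 and H2-D1 can be read side by side. Capitals mark letters that matched a searched motif on either strand: the interferon-stimulated response element (GAAA, any 2 bases, GAAA), the gamma-activated site (TTCNNNGAA), the X2 box (TGACGC), the Y box (ATTGG, a reversed CCAAT) and NF-kappaB.
B2m, chr2:122147437-122147736, + strand: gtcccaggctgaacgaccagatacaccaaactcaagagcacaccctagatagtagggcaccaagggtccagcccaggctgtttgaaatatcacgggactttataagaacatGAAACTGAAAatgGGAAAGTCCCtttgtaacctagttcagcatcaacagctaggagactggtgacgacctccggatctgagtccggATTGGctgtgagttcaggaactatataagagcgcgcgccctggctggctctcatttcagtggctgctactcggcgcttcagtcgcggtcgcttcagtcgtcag
H2-K1, chr17:34000298-34000597, - strand: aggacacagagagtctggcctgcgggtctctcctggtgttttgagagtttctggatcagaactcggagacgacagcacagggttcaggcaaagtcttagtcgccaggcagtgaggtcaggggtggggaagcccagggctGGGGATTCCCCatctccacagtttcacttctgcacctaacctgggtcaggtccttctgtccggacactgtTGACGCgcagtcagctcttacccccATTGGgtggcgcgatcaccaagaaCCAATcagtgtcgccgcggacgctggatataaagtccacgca
H2-D1, chr17:35262844-35263143, + strand: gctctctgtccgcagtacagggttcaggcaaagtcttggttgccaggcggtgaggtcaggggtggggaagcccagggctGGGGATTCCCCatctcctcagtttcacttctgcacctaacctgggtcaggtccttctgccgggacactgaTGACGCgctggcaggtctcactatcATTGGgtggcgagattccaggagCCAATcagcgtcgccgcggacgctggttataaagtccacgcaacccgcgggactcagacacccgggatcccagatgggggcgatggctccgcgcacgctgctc
Tap1, chr17:34187306-34187605, + strand: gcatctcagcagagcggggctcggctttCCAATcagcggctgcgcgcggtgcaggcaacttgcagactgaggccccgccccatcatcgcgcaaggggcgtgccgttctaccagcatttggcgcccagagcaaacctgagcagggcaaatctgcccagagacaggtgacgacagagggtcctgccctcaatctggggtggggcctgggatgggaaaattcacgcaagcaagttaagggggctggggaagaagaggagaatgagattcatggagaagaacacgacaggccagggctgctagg
Psmb8, chr17:34197945-34198244, + strand: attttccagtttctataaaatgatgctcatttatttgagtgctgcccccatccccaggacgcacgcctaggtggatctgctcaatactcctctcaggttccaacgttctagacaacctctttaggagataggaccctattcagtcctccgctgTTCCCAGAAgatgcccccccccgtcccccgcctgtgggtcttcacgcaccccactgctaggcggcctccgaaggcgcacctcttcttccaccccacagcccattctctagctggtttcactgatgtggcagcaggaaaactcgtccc

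The interferon-stimulated response element was found in 1 of the 8 windows (B2m), against 3.44% of all 32851 promoter windows of this length. The gamma-activated site was found in 1 (Psmb8), against 8.3% of all windows. The X2 box was found in 2 (H2-K1 and H2-D1), against 7.4%, the NF-kappaB motif in 3 (B2m, H2-K1 and H2-D1), against 4.51%, and the Y box in 6, against 37.4%. In H2-K1 and H2-D1 the NF-kappaB motif, the X2 box and the Y box came in the same order and spacing, with 70 bases between the first letters of NF-kappaB and X2 and 25 between X2 and Y. This block began 111 bases before the RefSeq start of H2-K1 shown here and 171 bases before that of H2-D1. It began 125 bases before a second RefSeq start of H2-K1, whose window is not shown. In the block, 89 of 100 bases were the same in H2-K1 and H2-D1. The windows of Tap1 and Psmb9 shared 275 bases, since the start sites of these genes lie back to back. Their Y box matches are the same bases read on opposite strands, so 1 site counts in 2 of the 6 windows. Only the stated letter patterns were searched, so a variant of an element was not counted, and a window without a match may still hold one. These matches describe letters in the windows, and binding was not measured.

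**Figure D1:**
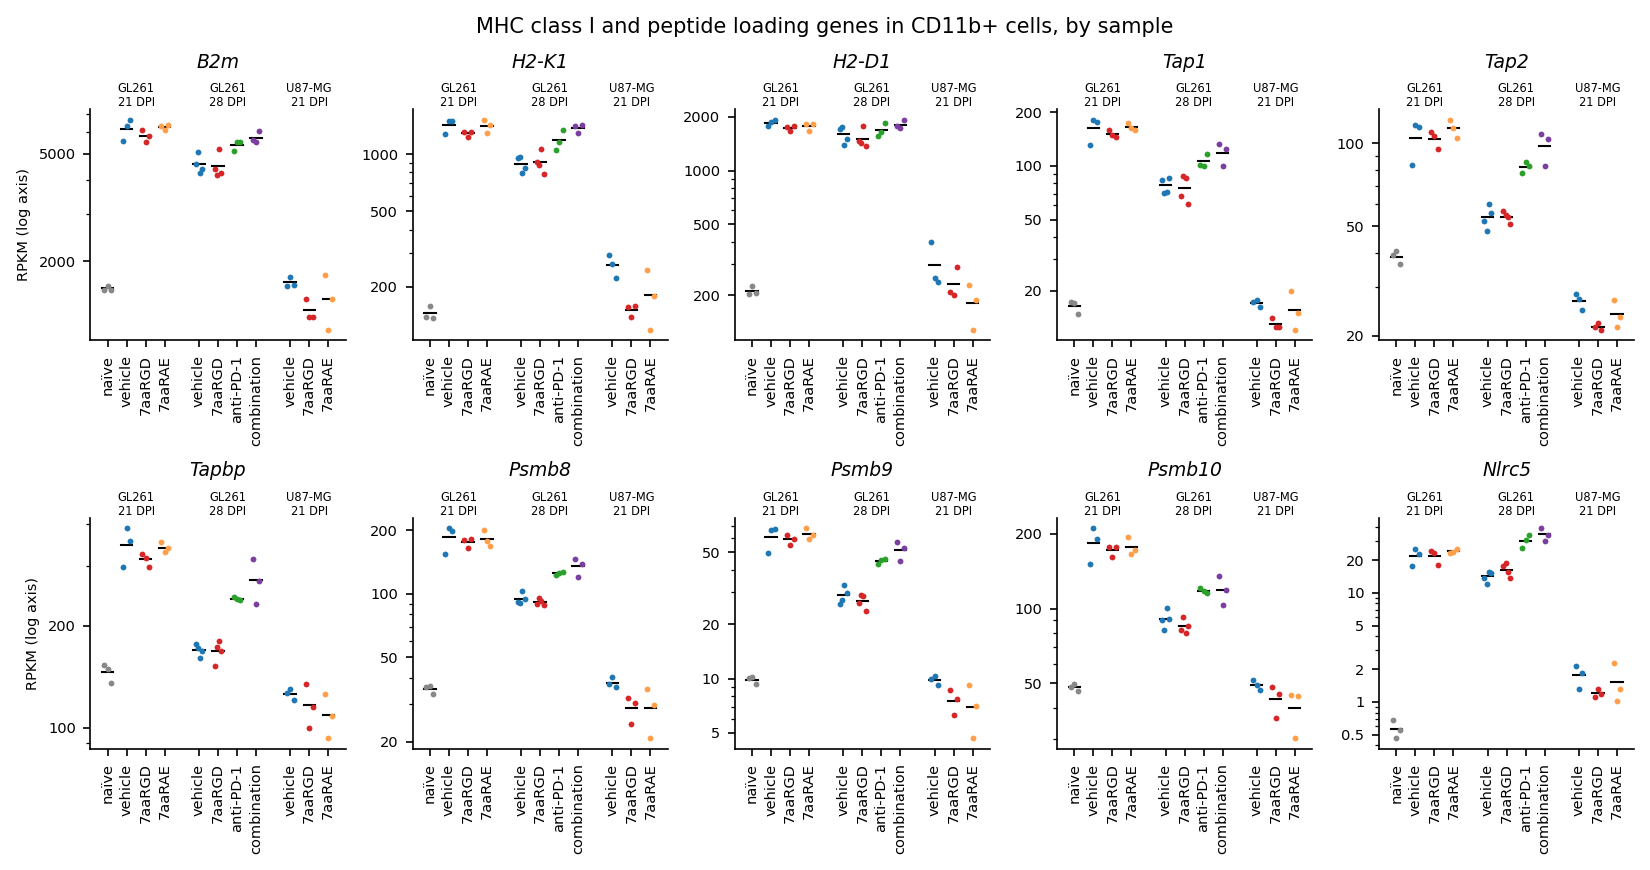
RPKM of each of the 10 genes (vertical log axes, 1 panel per gene) in every sample of the 3 experiments, with 1 point per sample and a bar at each group's mean. Within the 21 DPI GL261 experiment all 10 genes are lowest in naïve mice, and at 28 DPI Nlrc5 lies between 25.7 and 39.0 RPKM in the anti-PD-1 and combination samples against 12.2 to 18.7 in the vehicle and 7aaRGD samples.

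The first comparison asks how CD11b+ cells of a GL261 tumor-bearing hemisphere differ from those of a naïve brain. All 10 genes rose in vehicle samples, from 2.36-fold for Tapbp to 14.4-fold for Nlrc5, and in each of them the lowest tumor-bearing sample was above the highest naïve sample. Across all 9727 genes tested, 34.6% were called higher by limma at an adjusted p under 0.05, and 35.6% were higher with no overlap. The median log2 fold change was 2.42 over the 10 genes and -0.14 over all genes. With scaling factors that put the median of all genes near 0, the median of the 10 genes was 2.57 (TMM) or 2.59 (median of ratios). In sorted bulk samples, fewer cells of a type and less RNA per cell cannot be told apart.

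B2m, the light chain shared by all class I molecules, stood at 1567, 1625 and 1568 RPKM in the naïve samples and at 5561, 6299 and 6675 in the vehicle samples. It already held rank 18 of 21894 protein-coding genes in naïve cells and held rank 3 in vehicle cells. Its fold change was 3.88 (95% interval 3.37 to 4.47, limma adjusted p = 2.69e-07). H2-K1, a classical heavy chain, stood at 139, 159 and 138 RPKM in naïve samples against 1274, 1492 and 1495 in vehicle samples. H2-D1, the other classical heavy chain of this strain, stood at 203, 226 and 205 against 1769.8, 1881 and 1931. Neither heavy chain overlapped between the groups, and both changed by more than the light chain. The fold changes were 9.72 for H2-K1 (8.42 to 11.2, limma adjusted p = 2.73e-08) and 8.78 for H2-D1 (7.85 to 9.83, limma adjusted p = 1.20e-08). The ratio of H2-K1 to B2m RPKM was 0.0914 ± 0.00542 (SD, n = 3) in naïve samples and 0.230 ± 0.00651 (SD, n = 3) in vehicle samples, and its ranges did not overlap.

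The subunits of the peptide transporter did not change alike. Tap1 stood at 17.2, 17.0 and 14.9 RPKM in naïve samples and at 130.3, 181 and 176 in vehicle samples. Tap2 stood at 39.3, 40.5 and 36.4 in naïve samples and at 83.0, 116 and 115 in vehicle samples. Tap1 was below Tap2 in every naïve sample and above it in every vehicle sample. The fold changes were 9.32 for Tap1 (7.61 to 11.4, limma adjusted p = 1.41e-07) and 2.63 for Tap2 (2.15 to 3.23, limma adjusted p = 1.45e-05). Tapbp, which bridges the transporter and the empty heavy chain, stood at 153, 149 and 135 RPKM in naïve samples and 297, 387 and 356 in vehicle samples. Its fold change of 2.36 (2.00 to 2.78, limma adjusted p = 8.20e-06) was the smallest of the 10.

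Among the immunoproteasome subunits, Psmb8 (the chymotrypsin-like subunit) stood at 36.2, 36.6 and 33.6 RPKM in naïve samples and at 155, 204 and 199 in vehicle samples. Psmb9 stood at 10.13, 10.17 and 9.30 in naïve samples and at 49.2, 66.2 and 67.2 in vehicle samples. Psmb10 stood at 48.4, 49.9 and 46.8 against 152, 210.0 and 191. In naïve cells Psmb10 was the highest of the 3 and Psmb9 the lowest, while Psmb8 and Psmb10 overlapped in vehicle cells. The fold changes were 5.09 for Psmb8 (limma adjusted p = 2.75e-07), 5.64 for Psmb9 (limma adjusted p = 3.20e-07) and 3.72 for Psmb10 (limma adjusted p = 1.14e-06). The constitutive subunits rose as well, by log2 fold changes of 0.65 for Psmb5, 0.79 for Psmb7 and 0.93 for Psmb6. The ratio of Psmb9 to Psmb6, which compete for one site, was 0.322 ± 0.00812 (SD, n = 3) in naïve and 1.03 ± 0.189 (SD, n = 3) in vehicle samples. That of Psmb8 to Psmb5 was 0.830 ± 0.0425 and 2.76 ± 0.518, and that of Psmb10 to Psmb7 was 3.47 ± 0.245 and 7.45 ± 1.35. The ratio with Psmb5 is the least certain, because 54.1% of the 50-base windows of Psmb5 occur in another gene.

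Nlrc5, the coactivator of class I promoters, was the only one of the 10 genes below 1 RPKM in naïve cells, at 0.682, 0.464 and 0.551. In vehicle samples it stood at 17.5, 25.2 and 22.6 RPKM. Its rank among protein-coding genes moved from 10028 to 2080. The fold change was 14.4 (11.8 to 17.6, limma adjusted p = 5.91e-08), on a log2(RPKM + 1) scale that understates the change of so low a gene. Vehicle sample 1 had the lowest level of all 10 genes within its group, and leaving it out left 10 of 10 genes called.

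The mix of cells moved with these genes. All 9 microglia markers of the list (Tmem119, P2ry12 and others) were lower in vehicle than in naïve samples, with a summed level of 16460 RPKM in naïve and 1754 in vehicle samples on average. Of 9 monocyte and macrophage markers 8 were higher (Ccr2, Arg1 and others), and their sum was 69.0 RPKM in naïve and 3169 in vehicle samples. No marker of either list was at 0 in any sample. The summed dendritic cell markers stood at 23.1 RPKM in naïve and 82.0 in vehicle samples on average, with 3 of 5 tested genes called higher. The NK markers summed to 0.620 and 17.55 RPKM and the endothelial markers to 3.01 and 19.6 RPKM, and both tested genes of each list were called higher. The part of all these markers in the rise of the 10 genes was not tested.

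Other genes of the pathway were grouped by role, and their counts stand beside 34.6% of all genes called higher and 48.2% called lower. Of 20 other class I and class I-like heavy chains 11 were tested, and 8 rose and 1 fell (median log2 fold change 2.22). They included H2-Q7 (99.1 RPKM in vehicle, 1.00 in naïve), H2-Q6 (206 and 3.40) and H2-Q4 (167 and 11.02), which share 21.8% to 32% of their 50-base windows with other genes. Of 8 proteasome activator and assembly genes 5 rose and 1 fell. Psme2 and Psme1, the subunits of the PA28 activator, rose from 35.3 to 191 and from 43.9 to 205 RPKM. Of 10 further genes of loading and trimming in the endoplasmic reticulum 4 rose and 5 fell. Tapbpl, a tapasin relative that edits peptides, rose from 19.8 to 54.1 RPKM, and Canx, the chaperone calnexin, fell from 211 to 117. Of 22 class I regulators 9 rose and 8 fell. Stat2 rose from 6.56 to 61.2 RPKM, and Ciita, the class II counterpart of Nlrc5, from 1.21 to 41.9. All 5 tested genes of a list of class I receptors and their relatives on myeloid and NK cells rose, among them Pirb (4.87 to 83.5 RPKM) and Klra2 (2.50 to 76.9).

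**Figure D2:**
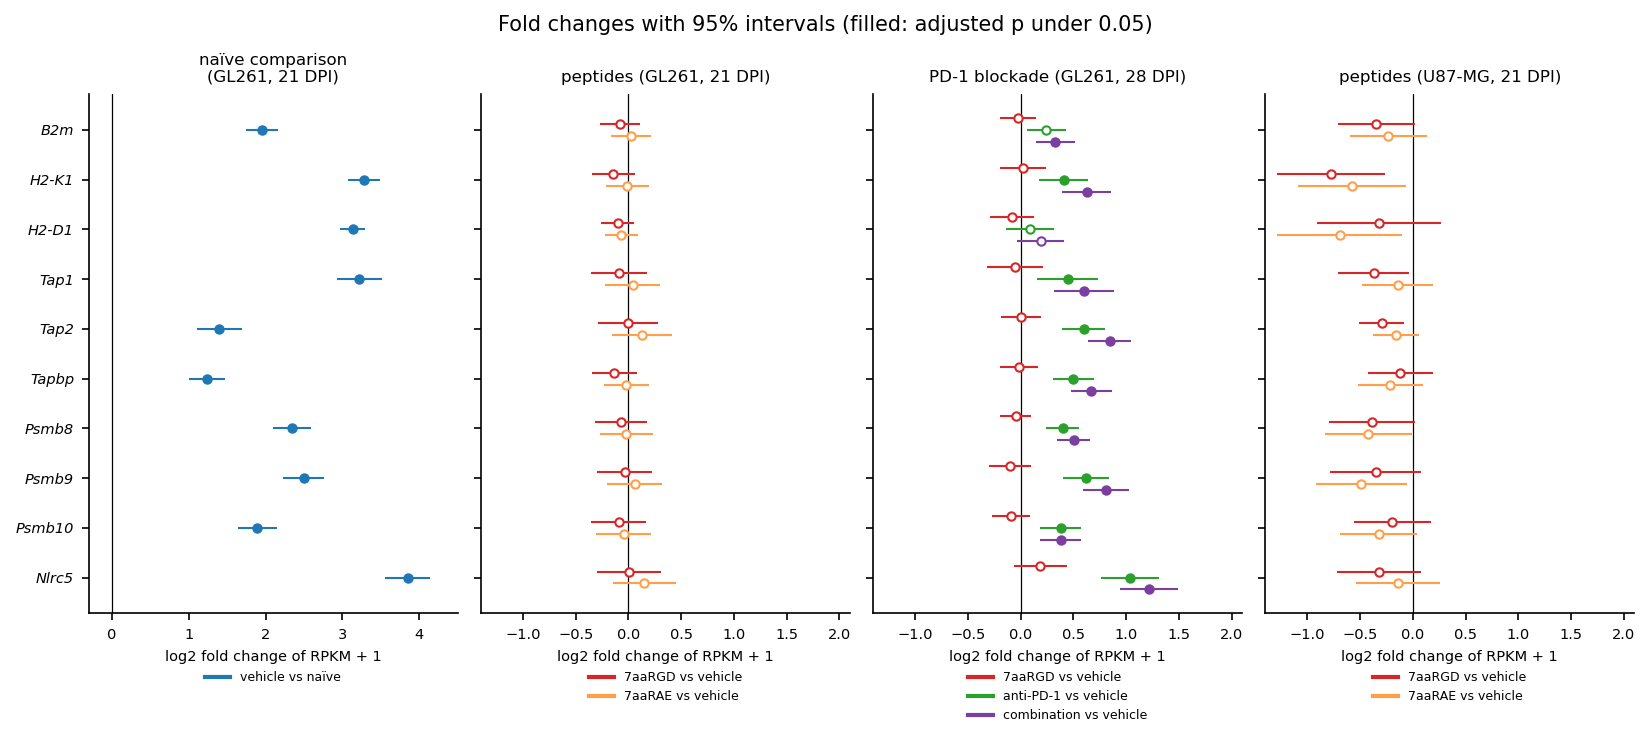
Log2 fold changes (horizontal axes) of the 10 genes with 95% intervals from limma, in 4 panels: vehicle against naïve, the peptides in GL261 at 21 DPI, the 28 DPI treatments, and the peptides in U87-MG, with filled symbols for an adjusted p under 0.05. In the first panel all 10 symbols are filled, at 28 DPI those of anti-PD-1 (8 genes) and the combination (9 genes) are filled, and in both peptide panels at 21 DPI none is.

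The second comparison asks whether the peptides changed these genes in GL261 gliomas at 21 DPI. No gene of the 10 was called by limma with 7aaRGD against vehicle, and none had an unadjusted p under 0.05. Of all 9440 genes, 0.148% were called and 13.5% had an unadjusted p under 0.05. The estimates ran from -0.14 for H2-K1 to 0.01 for Nlrc5 on the log2 scale, with 9 of 10 below 0 against 42.3% of all genes. H2-K1 stood at 1309.8, 1227 and 1311 RPKM under 7aaRGD, so that 1 of these 3 samples was below the lowest vehicle sample. Its 95% interval was -0.35 to 0.06 (limma adjusted p = 0.522). Nlrc5 stood at 23.97, 23.2 and 18.2 RPKM under 7aaRGD, all inside the vehicle range. Its interval was -0.29 to 0.31. Over the 10 genes the intervals of the log2 fold change lay between -0.35 (Tap1) and 0.31 (Nlrc5).

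With 7aaRAE the same vehicle samples served as the control. No gene of the 10 was called by limma and none had an unadjusted p under 0.05, against 0% of all genes called and 6.36% with an unadjusted p under 0.05. The estimates ran from -0.07 for H2-D1 to 0.15 for Nlrc5, with 5 of 10 below 0 against 48% of all genes. The intervals lay between -0.31 (Psmb10) and 0.45 (Nlrc5). B2m stood at 6309.6, 6119 and 6403 RPKM under 7aaRAE and at 6114, 5538 and 5807 under 7aaRGD. Each 7aaRGD sample was thus below each 7aaRAE sample for this gene. Tapbp did the same, with 326, 317 and 299 RPKM under 7aaRGD and 352, 329.5 and 339 under 7aaRAE. These were 2 of 10 genes lower with no overlap, against 3.54% of all genes. The direct comparison of the peptides, which share length and differ in the motif, gave 10 of 10 estimates below 0 (41.8% of all genes), from -0.14 for Nlrc5 to -0.03 for H2-D1. None was called by limma (adjusted p = 0.992 for each), nor was any of all genes (0%), and none of the 10 had an unadjusted p under 0.05, against 5.51% of all genes. The intervals of this difference reached from -0.45 (Nlrc5) to 0.22 (Psmb10). A limma F test over the 3 tumor-bearing groups called 0 of the 10 genes, and 0% of all genes.

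All 10 genes were above every naïve sample in each tumor-bearing sample, whichever peptide was given. Under 7aaRGD Tap1 stood at 159.6, 149 and 145 RPKM, and under 7aaRAE at 175, 163 and 159, while no naïve sample exceeded 17.2. Psmb9 stood at 62.0, 55.0 and 59.5 under 7aaRGD and at 67.7, 58.9 and 62.3 under 7aaRAE, while no naïve sample exceeded 10.17. All 9 microglia markers were above vehicle under either peptide in their estimates (medians 0.43 and 0.24 on the log2 scale) but none was called. The monocyte and macrophage sum was 1941 to 2203 RPKM under 7aaRGD, 2078 to 2310 under 7aaRAE and 2325 to 4075 under vehicle. The NK marker sum ran from 21.7 to 56.7 RPKM under 7aaRGD, from 8.37 to 30.2 under 7aaRAE and from 8.63 to 25.9 under vehicle. Its highest value was in the 7aaRGD sample 1 that stood apart in its share of low rows. The T cell sum ran from 7.47 to 16.85 RPKM under 7aaRGD, 2.87 to 8.78 under 7aaRAE and 1.51 to 7.33 under vehicle. In this order, the dendritic cell sum was 91.07 to 105.7, 78.66 to 98.44 and 80.11 to 84.43 RPKM. The oligodendrocyte lineage sum was 26.5 to 36.25, 21.09 to 26.51 and 16.55 to 23.18 RPKM. For T cell, dendritic cell and oligodendrocyte markers, 7aaRGD was above vehicle without overlap. None of the tested other heavy chains, loading genes, proteasome activators or regulators was called with either peptide. The median of the 11 other heavy chains was -0.10 with 7aaRGD and 0.09 with 7aaRAE. The part of these markers in the class I levels was not tested.

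The third comparison concerns GL261 gliomas at 28 DPI, where 7aaRGD was joined to anti-PD-1. With anti-PD-1, 8 of the 10 genes rose: Nlrc5 2.05-fold, Psmb9, Tap2, Tapbp and Tap1 by 1.36 to 1.54-fold, and H2-K1, Psmb8 and Psmb10 by 1.30 to 1.33-fold. With the combination, 9 rose, from 1.25-fold for B2m to 2.32-fold for Nlrc5. H2-D1 was called with neither, and no gene was called with 7aaRGD alone. A limma F test over the 4 groups called every gene of the 10 but H2-D1 (adjusted p = 0.188), against 39.7% of all 9737 genes. The 3 treatments were compared with the same 4 vehicle samples.

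With 7aaRGD alone the estimates ran from -0.10 for Psmb9 to 0.19 for Nlrc5, with 7 of 10 below 0 against 45.6% of all genes. None of the 10 had an unadjusted p under 0.05 in limma, while 0.647% of all genes were called and 14.6% had an unadjusted p under 0.05. Nlrc5 stood at 17.6, 18.7, 15.5 and 13.6 RPKM with 7aaRGD and at 13.7, 12.2, 15.6 and 15.2 with vehicle. The groups overlapped, and the interval was -0.07 to 0.44 (limma adjusted p = 0.473). Tap2 stood at 56.6, 55.0, 54.0 and 50.7 with 7aaRGD, inside the vehicle range of 48.0 to 60.0. Of 9 microglia markers 1 was called higher with 7aaRGD, and their sum was 1830 to 3246 RPKM against 1567 to 2236 with vehicle.

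With anti-PD-1, Nlrc5 stood at 25.7, 30.6 and 34.2 RPKM, and with the combination at 39.0, 30.0 and 34.0. No sample of either group overlapped with vehicle or 7aaRGD. The log2 fold change against vehicle was 1.04 with anti-PD-1 (0.76 to 1.31, limma adjusted p = 0.000228) and 1.22 with the combination (0.94 to 1.49, limma adjusted p = 1.32e-05). It was the only one of the 10 genes past a log2 fold change of 1. Its rank among protein-coding genes was 3011 with vehicle, 1473 with anti-PD-1 and 1270 with the combination.

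Of the heavy chains, H2-K1 stood at 958, 963, 794 and 847 RPKM with vehicle and at 1052, 1159.6 and 1344 with anti-PD-1. With the combination it stood at 1404, 1296 and 1415. The vehicle samples were below all of these. Its fold change was 1.33 with anti-PD-1 (1.13 to 1.56, limma adjusted p = 0.0165) and 1.54 with the combination (1.31 to 1.82, limma adjusted p = 0.000534). H2-D1 stood at 1718, 1760.2, 1390.0 and 1509.7 with vehicle, at 1569.6, 1644 and 1853 with anti-PD-1 and at 1774, 1739.7 and 1921 with the combination. These groups overlapped, with log2 intervals of -0.14 to 0.31 for anti-PD-1 (limma adjusted p = 0.591) and -0.04 to 0.42 for the combination (limma adjusted p = 0.162). The ratio of H2-K1 to H2-D1 RPKM within a sample was 0.559 ± 0.0100 (SD, n = 4) with vehicle, 0.602 ± 0.0229 (SD, n = 4) with 7aaRGD, 0.700 ± 0.0278 (SD, n = 3) with anti-PD-1 and 0.758 ± 0.0295 (SD, n = 3) with the combination. The ranges of these 4 groups did not overlap from one to the next, but vehicle and 7aaRGD nearly met (0.5715 and 0.5733). Neither gene was called with 7aaRGD alone, or with the combination against anti-PD-1. The ratio was not tested, and the share of other ratios that separate alike was not computed. Both genes share part of their 50-base windows with other genes, as given above.

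B2m stood at 4563, 5053, 4237 and 4398 RPKM with vehicle, at 5122, 5518 and 5525 with anti-PD-1 and at 5605, 5509 and 6038 with the combination. Every antibody-treated sample was above every vehicle sample. The log2 fold change was 0.24 with anti-PD-1 (0.06 to 0.43, limma adjusted p = 0.0575, not called) and 0.33 with the combination (0.14 to 0.51, limma adjusted p = 0.00780). Leaving out vehicle sample 2, the highest of its group, brought B2m with anti-PD-1 to a limma adjusted p of 0.0385. Without a filter on low values, B2m was not called with the combination (limma adjusted p = 0.184 against vehicle and 0.172 against 7aaRGD).

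Both transporter subunits rose with anti-PD-1. Tap1 stood at 83.5, 70.7, 71.2 and 85.6 RPKM with vehicle, at 102, 99.5 and 117 with anti-PD-1 and at 133, 99.8 and 124 with the combination. Tap2 stood at 52.4, 48.0, 60.0 and 55.8 with vehicle, at 78.2, 85.6 and 82.3 with anti-PD-1 and at 108, 82.5 and 104 with the combination. Neither subunit overlapped between vehicle and the antibody groups. The fold changes with anti-PD-1 were 1.36 for Tap1 (1.11 to 1.66, limma adjusted p = 0.0298) and 1.51 for Tap2 (1.31 to 1.74, limma adjusted p = 0.000967). The call of Tap1 was lost when any of 5 samples was left out. Its limma adjusted p was 0.0746 without vehicle sample 2, 0.0634 without vehicle sample 3, and 0.0550, 0.0562 and 0.105 without anti-PD-1 samples 1, 2 and 3. Tapbp stood at 177, 172, 161 and 169 with vehicle, at 242, 239.8 and 238 with anti-PD-1 and at 315, 232 and 270.3 with the combination. The anti-PD-1 samples of Tapbp lay close together, and the combination samples spread over a wider range, all above vehicle. Its fold change was 1.41 with anti-PD-1 (limma adjusted p = 0.00209) and 1.59 with the combination (limma adjusted p = 7.83e-05).

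Of the immunoproteasome subunits, Psmb9 stood at 25.8, 27.1, 32.9 and 29.7 RPKM with vehicle, at 43.2, 45.1 and 45.9 with anti-PD-1 and at 57.1, 44.5 and 52.9 with the combination. Psmb8 stood at 91.4, 90.1, 103 and 94.5 with vehicle, at 123, 125 and 127 with anti-PD-1 and at 147, 119.5 and 139 with the combination. Psmb10 stood at 90.3, 81.8, 101 and 90.6 with vehicle, at 121, 117 and 116 with anti-PD-1 and at 135, 103 and 119 with the combination. None of the 3 overlapped between vehicle and the antibody groups. The fold changes with anti-PD-1 were 1.54 for Psmb9 (limma adjusted p = 0.00105), 1.32 for Psmb8 (limma adjusted p = 0.00226) and 1.30 for Psmb10 (limma adjusted p = 0.00977). The constitutive subunits did not follow. None of Psmb5, Psmb6 and Psmb7 was called with anti-PD-1 (0 of 3 with an unadjusted p under 0.05 in limma), and Psmb6 fell from 57.5 to 50.02 RPKM with the combination. The ratio of Psmb9 to Psmb6 was 0.501 ± 0.0341 (SD, n = 4) with vehicle, 0.515 ± 0.0800 (SD, n = 4) with 7aaRGD, 0.773 ± 0.00194 (SD, n = 3) with anti-PD-1 and 1.03 ± 0.118 (SD, n = 3) with the combination. The antibody groups of this ratio lay above vehicle and 7aaRGD, and the combination lay above anti-PD-1, without overlap. Psmb9 alone overlapped between the combination and anti-PD-1, while Psmb6 averaged 50.02 RPKM with the combination and 57.9 with anti-PD-1. The ratio of Psmb8 to Psmb5 ran from 2.19 to 2.591 with anti-PD-1 and from 2.453 to 3.378 with the combination, which overlapped. The subunit ratios were not tested, and the share of other ratios that separate alike was not computed. The ratio of Psmb10 to Psmb7 was 4.02 ± 0.346 with vehicle, 5.34 ± 0.238 with anti-PD-1 and 5.97 ± 1.06 with the combination, and the last groups overlapped.

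**Figure D3:**
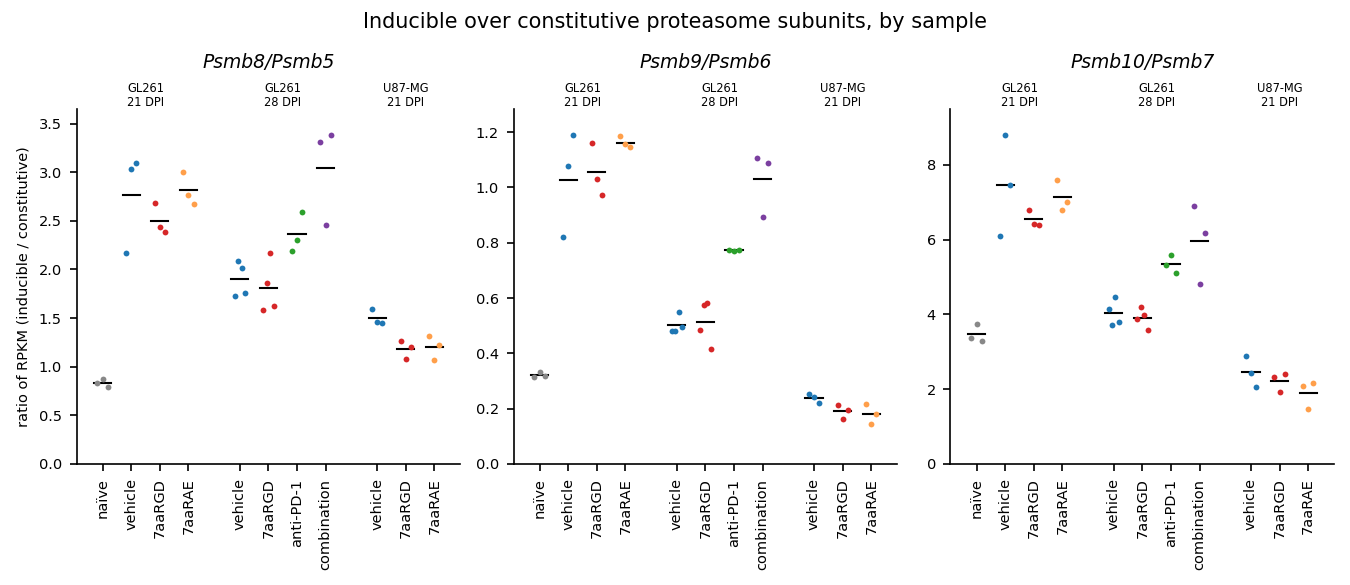
Ratio of the RPKM of each immunoproteasome subunit to that of the constitutive subunit it replaces (Psmb8/Psmb5, Psmb9/Psmb6 and Psmb10/Psmb7, vertical axes from 0) in every sample of each group, with 1 point per sample and a bar at the mean. Psmb9/Psmb6 is at 0.316 to 0.331 in naïve samples, at 0.819 to 1.19 in vehicle samples at 21 DPI, and in U87-MG gliomas never above 0.252.

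Against the background, the 8 genes called higher with anti-PD-1 compare with 10.8% of all genes, and 9 of the 10 genes were higher with no overlap, against 15.4% of all genes. With the combination 9 genes were called and 9 did not overlap, against 17.5% and 20% of all genes. The median log2 fold change of the 10 genes was 0.43 with anti-PD-1 and 0.61 with the combination, while that of all genes was -0.01 and -0.05. Against 7aaRGD alone, the combination was higher for the same 9 genes (13% of all genes called higher, 14.5% with no overlap, median 0.63). H2-D1 in that comparison had a log2 interval of 0.04 to 0.50 and a limma adjusted p of 0.0602.

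Adding 7aaRGD to anti-PD-1 gave estimates above 0 in 10 of 10 genes, against 38.9% of all genes, with a median of 0.16. The 10 genes varied together across samples, so such a count does not hold 10 independent observations. None was called by limma, against 0.0411% of all genes, and the groups overlapped in all 10 genes, while 6.23% of all genes were higher without overlap. One gene, Tap2, had an unadjusted p under 0.05 (15% of all genes did), with a log2 fold change of 0.25 (0.03 to 0.46, adjusted p = 0.277). The interval of Psmb10 was -0.21 to 0.21 and that of H2-K1 -0.03 to 0.47. The interaction term, which asks whether the combination went past the sum of both single treatments, was above 0 in 9 of 10 genes (36% of all genes), from -0.01 for Nlrc5 to 0.29 for Psmb9 (-0.02 to 0.59, limma adjusted p = 0.620). None was called or had an unadjusted p under 0.05, against 0% and 8.15% of all genes. Combination sample 2 had the lowest level of its group in 10 of 10 genes, and leaving it out left 0 genes called in both comparisons.

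Summed NK cell markers were higher than with vehicle in most antibody-treated samples at 28 DPI. Within each antibody group of 3 samples, their order was not tested against that of the 10 genes. The summed level of the 8 NK markers (Ncr1, Klrb1c, Prf1, Gzma, Gzmb, Nkg7, Eomes and Klre1) was 2.69 to 12.2 RPKM with vehicle and 2.02 to 11.3 with 7aaRGD. It was 54.3, 72.4 and 2.98 RPKM in anti-PD-1 samples 1, 2 and 3, and 28.3, 88.6 and 87.5 in combination samples 1, 2 and 3. Of 6 NK markers tested, 0 were called with anti-PD-1 by limma (3 had an unadjusted p under 0.05) and 5 were called with the combination. Of the 8 NK markers, 4 were at 0 in 7aaRGD sample 1, 1 in 7aaRGD sample 2 and 1 in vehicle sample 2. No NK marker was at 0 in an antibody-treated sample. Anti-PD-1 sample 3, with an NK sum inside the vehicle range, had the highest level of its group in 7 of the 10 genes. The same held in 7 genes for combination sample 1, with the lowest NK sum of its group. Combination sample 2, with the highest NK sum of its group, had the lowest level in 10 of 10 genes. Combination sample 3, with an NK sum of 87.5 RPKM, had the highest level of its group in 3 of the 10 genes. Without anti-PD-1 sample 3, 6 genes stayed called with anti-PD-1 in limma, and Tap1 (adjusted p = 0.105) and H2-K1 (adjusted p = 0.0710) were not. The part of NK cells in the class I levels was not tested. The summed T cell markers stood at 1.523 to 2.795 RPKM with vehicle and at 0.8273 to 2.279 with 7aaRGD. They stood at 1.514 to 6.891 RPKM with anti-PD-1 and at 4.5 to 8.361 with the combination. Every combination sample was above every vehicle and 7aaRGD sample, while the anti-PD-1 samples overlapped with each other group. The part of T cells in the class I levels was not tested.

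**Figure D4:**
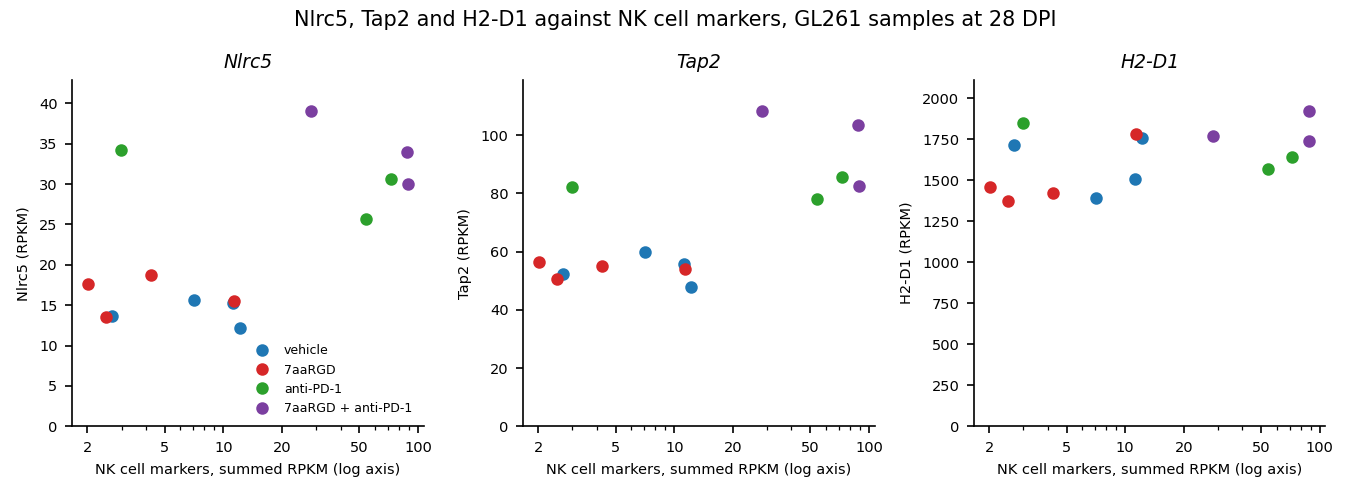
RPKM of Nlrc5, Tap2 and H2-D1 (vertical axes, 1 panel each) against the summed RPKM of 8 NK cell markers (horizontal log axis) in the 14 GL261 samples at 28 DPI, with 1 point per sample and the 4 groups marked. Anti-PD-1 sample 3 lies at an NK sum of 2.98 RPKM, inside the vehicle range, with an Nlrc5 level of 34.2 RPKM, above all vehicle samples. Combination sample 3 lies at an NK sum of 87.5 RPKM, with an Nlrc5 level of 34.0 RPKM.

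Markers of myeloid cells differed too. With the combination 6 of 9 microglia markers were higher (median log2 fold change 0.70), and of 9 monocyte and macrophage markers 4 were higher and 1 lower. With anti-PD-1 these counts were 2 of 9 and 4 of 9. The dendritic cell markers summed to 9.25 RPKM with vehicle, 8.49 with 7aaRGD, 19.2 with anti-PD-1 and 23.03 with the combination on average, and 2 of 3 tested genes were called higher in each antibody group. The endothelial markers summed to 4.23, 4.97, 9.32 and 10.16 RPKM in this order, and both tested genes were called higher in each antibody group. The dendritic cell gene Cd209a was at 0 in 2 vehicle samples and 1 7aaRGD sample, and Xcr1 in 2 7aaRGD samples. The part of these markers in the differences of the class I genes was not tested.

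Other genes of the pathway at 28 DPI were counted in the same lists, beside 10.8% of all genes called higher and 12.2% lower with anti-PD-1, and 17.5% higher and 25.8% lower with the combination. Of 11 other heavy chains tested 3 rose with anti-PD-1, and with the combination 7 rose and 1 fell. H2-T24 stood at 17.0 RPKM with vehicle, 35.2 with anti-PD-1 and 42.2 with the combination. H2-Q7 stood at 45.9, 73.1 and 86.1, and Cd1d1, which presents lipids, rose from 2.15 to 7.58 RPKM with the combination. Of 10 further loading and trimming genes 7 rose with anti-PD-1 and 7 with the combination, while 1 and 2 fell. Calr, the chaperone calreticulin of the loading complex, stood at 304, 469 and 493 RPKM, and Tapbpl at 31.9, 45.8 and 49.1. Of 8 proteasome activator and assembly genes, only Psme2 rose with either treatment, from 81.9 to 134 and 149.9 RPKM, and the assembly factor gene Psmg2 fell with the combination, from 5.92 to 4.35. Of 22 class I regulators 9 rose and 2 fell with anti-PD-1, and 12 rose and 2 fell with the combination. The transcription factor Irf1 stood at 54.7, 116 and 144 RPKM with vehicle, anti-PD-1 and the combination, and Ciita at 19.5, 35.0 and 46.9. Of 4 tested genes of the list of class I receptors and their relatives, Pira2 was called with both. No gene of these lists was called between the combination and anti-PD-1.

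The fourth comparison concerns U87-MG gliomas in nude mice. The tables were normalized separately, so levels are set beside those of the GL261 experiments with no test. Vehicle samples had 1626, 1747 and 1637 RPKM of B2m, and 2.12, 1.32 and 1.86 of Nlrc5. The mean of B2m was 1587 RPKM in naïve C57BL/6 mice and 4563 with vehicle at 28 DPI, and that of Nlrc5 0.566 and 14.2. The microglia sum was 9600 RPKM in vehicle samples on average and the monocyte and macrophage sum 186. The group mean was highest with vehicle in all 10 genes. No gene of the 10 was called by limma with either peptide. Called genes made up 0% of all genes with 7aaRGD and 0.0103% with 7aaRAE, and 3 and 4 of the 10 genes had an unadjusted p under 0.05, against 3.78% and 7.72% of all genes. A limma F test over the 3 groups called 0 of the 10 genes, against 0.0103% of all genes.

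H2-K1 stood at 293, 264 and 223 RPKM with vehicle, at 156, 139 and 158 with 7aaRGD and at 245, 119 and 178 with 7aaRAE. The 7aaRGD samples were all below vehicle, and the 7aaRAE samples overlapped with it. The log2 fold change was -0.77 with 7aaRGD (-1.28 to -0.26, limma adjusted p = 0.941) and -0.57 with 7aaRAE (-1.09 to -0.06, limma adjusted p = 0.577). H2-D1 stood at 400.3, 249 and 236 with vehicle, at 208, 201 and 288 with 7aaRGD and at 228, 128 and 189 with 7aaRAE. Here the 7aaRAE samples were all below vehicle (log2 fold change -0.69, -1.28 to -0.10, limma adjusted p = 0.552). H2-Ea-ps, given above, set these mice apart from the C57BL/6 mice, whereas mm10 is a C57BL/6 sequence. How heavy chains of another strain were counted was not tested.

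Tap1 stood at 17.2, 17.7 and 16.3 RPKM with vehicle and at 14.0, 12.5 and 12.5 with 7aaRGD. Tap2 stood at 28.2, 27.3 and 24.8 with vehicle and at 21.5, 22.2 and 21.0 with 7aaRGD. Both were lower without overlap, by log2 fold changes of -0.37 (-0.71 to -0.04) and -0.30 (-0.51 to -0.08), each with a limma adjusted p of 0.941. Psmb9 stood at 9.89, 10.4 and 9.26 with vehicle, at 8.59, 6.29 and 7.73 with 7aaRGD and at 9.19, 4.66 and 7.02 with 7aaRAE, lower than vehicle without overlap under either peptide. Psmb8 behaved alike, with 37.3, 40.3 and 36.3 RPKM under vehicle and no peptide sample above 35.5. In all, 7 of 10 genes were lower without overlap with 7aaRGD (6.39% of all genes) and 4 of 10 with 7aaRAE (9.46% of all genes). The 7 include Nlrc5, whose highest 7aaRGD value of 1.318 RPKM was barely below its lowest vehicle value of 1.321. All 10 estimates were below 0 with each peptide, against 50.9% of all genes in either case, with medians of -0.33 and -0.28. Both peptides were set against the same 3 vehicle samples.

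No gene of the 10 was called between the peptides. With 7aaRGD against 7aaRAE 5 of 10 estimates were below 0 against 51.6% of all genes, from -0.23 for Tap1 (-0.56 to 0.11) to 0.37 for H2-D1 (-0.22 to 0.96). None was called by limma or had an unadjusted p under 0.05, against 0% and 3.37% of all genes. The first 7aaRAE column was the highest of its group and the second the lowest in 10 of 10 genes. The first 7aaRAE column had 2.25 RPKM of Nlrc5 and the second 1.02. The NK marker sum was 8.55 to 24.6 RPKM with vehicle, 1.70 to 8.27 with 7aaRGD and 0.359 to 2.41 with 7aaRAE, and all 3 tested NK markers were below vehicle with each peptide (medians -0.93 and -1.57) though none was called. All 6 myeloid identity genes were below vehicle with each peptide (medians -0.20 and -0.14), as were 8 of 9 microglia markers with 7aaRGD and 9 of 9 with 7aaRAE (medians -0.19 and -0.40), and none was called. The monocyte and macrophage sum was higher under 7aaRGD without overlap, at 222 to 299 RPKM against 167.5 to 207 with vehicle. With 7aaRAE it was 156 to 238 RPKM. The third 7aaRGD column had a neutrophil sum of 305.8 RPKM, against 23.05 to 83.73 in the other U87-MG columns. That column also had the highest H2-Ea-ps, at 374.5 RPKM. The part of these markers in the class I levels was not tested. Of 13 other heavy chains 10 were below 0 with each peptide, and none of any list was called.

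Within each experiment the levels of the 10 genes varied together across tumor-bearing samples. All 45 pairwise correlations of log2(RPKM + 1) were above 0 in each. Their median was 0.784 over 9 samples in GL261 at 21 DPI, 0.892 over 14 samples at 28 DPI and 0.791 over 9 samples in U87-MG. The highest was that of Psmb8 with Psmb9 at 28 DPI (0.993) and in U87-MG (0.985), and that of Psmb8 with Psmb10 at 21 DPI (0.956). The lowest was that of H2-D1 with Nlrc5 (0.128) at 21 DPI, of H2-D1 with Psmb10 (0.377) at 28 DPI and of Tapbp with Nlrc5 (0.440) in U87-MG. These are descriptions over samples that share treatment groups and libraries. Counts above of how many of the 10 genes lay in one direction or did not overlap are thus not counts of independent observations.

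Of 8901 other genes tested in all 3 experiments, those whose levels were most like the mean of the 10 genes, by the lowest Pearson correlation over the 3 experiments, included H2-T23, Psme2, H2-Q6 and H2-Q4. The correlation was 0.948, 0.960 and 0.978 for H2-T23 and 0.923, 0.9095 and 0.942 for Psme2. H2-T23, a non-classical heavy chain, stood at 70.8 RPKM in naïve samples and 336 in vehicle samples at 21 DPI. At 28 DPI it stood at 172 with vehicle, 176 with 7aaRGD, 259 with anti-PD-1 and 273 with the combination, and in U87-MG at 51.9 with vehicle, 36.8 with 7aaRGD and 41.4 with 7aaRAE. H2-Q6 and H2-Q4 share 50-base windows with other genes.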

How the data were processed

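RNA-seq of CD11b+ cells was analysed from 3 deposited tables of 54513 rows. By the study's methods, reads were trimmed (Trimmomatic), mapped to mm10 (STAR) and counted in a reverse-stranded setting (HTSeq-count 0.11.1). The values the authors deposited were taken as RPKM plus 2. Weighted by gene length, the remainder summed in every sample to between 0.9878 and 1.0069 of the total that RPKM has by definition. Some rows lay below 2 in every sample, so a further, unknown step had been applied. After subtraction, values below 0 were set to 0. Read counts were not recovered, so the depth is unknown. Replicate differences of log2(RPKM + 1) spanned 7 of 8 and 9 of 10 possible dimensions in the GL261 tables and 6 of 6 in U87-MG. The GL261 replicates may therefore not be independent of each other, as the limma p-values take them to be.

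Row names were matched to GENCODE vM21 (98.8%). Protein-coding genes whose mean reached 1 RPKM were fitted on the log2(RPKM + 1) scale (limma 3.58.1, R 4.3.3, trended eBayes), naïve beside vehicle alone and otherwise with 1 spread for the tumor-bearing groups of each table. This scale understates changes of low genes. P-values are two-sided, Benjamini-Hochberg adjusted over all genes tested, with a threshold of 0.05. The fits were tested on simulated data. P-values measure the spread between samples, which are pools of 2 animals at 21 DPI and single mice at 28 DPI. All 10 members were named in each comparison. From each other list up to 3 genes with the largest changes past the threshold could be named, or the gene with the lowest p where none passed, and the 5 genes most like the members. A gene that these rules named is not reported here. The members and lists were chosen with earlier results of these data known. Alternatives were the pseudocount, filter, scaling, threshold, samples fitted, replicate block, 1 residual degree of freedom less, and each sample left out.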

Additional observations from a re-analysis of the deposited data

Results flagged for a closer look

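No level of the 10 class I genes stood apart from its group of 4 by Dixon's test. Of 50 groups of 4 samples tested, 2 marker sums at 28 DPI did, where chance gives about 1 in 20. The summed astrocyte markers stood at 11.05 RPKM in 7aaRGD sample 3, against 7.491 to 7.661 in the other 7aaRGD samples. The summed neuron markers stood at 0.2268 RPKM in vehicle sample 4, against 1.076 to 1.129 in the other vehicle samples.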

How the results depend on the processing

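No called estimate of the 10 genes changed sign under any alternative run. Asking also for a log2 fold change of at least 1 left 1 of the 10 genes (Nlrc5) called with anti-PD-1 against vehicle, 1 with the combination against vehicle and 1 with the combination against 7aaRGD, where 8, 9 and 9 were called. With each sample left out in turn, the genes called were 6 to 8 with anti-PD-1, 9 with the combination against vehicle, 9 to 10 against 7aaRGD (H2-D1 was called without 7aaRGD sample 3) and 10 with vehicle against naïve, and 0 in each other comparison. The medians of the 10 genes then ran from 0.39 to 0.48, 0.54 to 0.69, 0.55 to 0.71 and 2.35 to 2.56 in this order. They ran from -0.19 to -0.0012 with 7aaRGD in GL261 at 21 DPI, -0.10 to 0.06 with 7aaRAE, and -0.06 to -0.0043 with 7aaRGD at 28 DPI, and in U87-MG from -0.38 to -0.29 with 7aaRGD and -0.41 to -0.12 with 7aaRAE. With 7aaRGD against 7aaRAE they ran from -0.14 to -0.08 in GL261 and -0.19 to 0.12 in U87-MG, with the combination against anti-PD-1 from 0.09 to 0.26, and for the interaction from 0.12 to 0.23. Without any filter Tap1 was not called with anti-PD-1 (limma adjusted p = 0.0514), nor B2m with the combination against vehicle (0.184) or 7aaRGD (0.172). With 1 residual degree of freedom less, also chosen after seeing the data, the counts of the 10 genes called did not change. Without 7aaRGD sample 1 in GL261 at 21 DPI 0 genes were called (median -0.11). Without the third columns of U87-MG, an alternative chosen after seeing the data, 0 genes were called, with medians of -0.35 with either peptide. With the third columns as a term, chosen likewise, 0 genes were called in each U87-MG comparison. With a mean of at least 5 RPKM, 9 of the 10 genes were tested in U87-MG. Over all genes, counts called moved by more than 1.5 times under some alternatives: from 14 to between 0 and 120 (7aaRGD, 21 DPI), 63 to between 0 and 144 (7aaRGD, 28 DPI), 2246 to between 132 and 3056 (anti-PD-1), 4214 to between 379 and 4988 (combination), 3559 to between 319 and 4403 (against 7aaRGD), 4 to between 0 and 183 (combination against anti-PD-1), 8060 to between 2749 and 9915 (vehicle against naïve) and 1 to between 0 and 32 (7aaRAE, U87-MG).

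Same-numbered GL261 samples deviated together (a correlation over 0.1) in 1 of 18 pairs at 21 DPI and 3 of 19 at 28 DPI. Differently numbered samples did so in 12 of 36 and 19 of 54 pairs. On the log scale, replicate differences spanned fewer dimensions than possible, so this check cannot show whether samples were paired. With the replicate number as a block, 7 genes were called with anti-PD-1 (Tap1 was not, limma adjusted p = 0.0749), 9 with the combination against vehicle, 9 against 7aaRGD, 10 with vehicle against naïve, and 0 in each other comparison. No paired analysis was possible for U87-MG because its columns carry no replicate number.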
